A study of Mus musculus with 18 samples.

Results

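The genes described here are the nuclear-encoded genes of oxidative phosphorylation. They were taken from the FPKM tables of macrophages and liver (FPKM is the number of fragments scaled for transcript length and library size) by symbol, as those that start with Nduf, Uqcr, Atp5, Cox4i, Cox5, Cox6, Cox7 or Cox8 together with Sdha, Sdhb, Sdhc and Sdhd. Of 89 such symbols, 83 had a mean FPKM above 1 over the 9 macrophage libraries and 82 over the 9 liver libraries, with 81 in both and 84 in at least 1 of the tables. They are part of 9905 genes above that level in macrophages and 10147 in liver, of 21441 listed. By symbol, 36 of the 83 members in macrophages were placed with complex I, 4 with its assembly factors (Ndufaf) and 4 with complex II. A further 8 were placed with complex III, 14 with complex IV and 17 with ATP synthase. The liver counts are the same except for 3 assembly factors. Ndufa4 and Ndufa4l2 were placed with complex IV, as their products are known to belong to that complex. Atp5s and Atp5sl, which carry the newer names Dmac2l and Dmac2, were counted with ATP synthase by symbol alone.

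The study examined moringa isothiocyanate-1 (MIC-1), a plant isothiocyanate from Moringa oleifera seeds, against inflammation caused by lipopolysaccharide (LPS), the outer membrane component of Gram-negative bacteria. The liver libraries came from male wild type C57BL/6 mice, whose age is not given in the sources used here, with 3 libraries in each group. Control mice received saline in place of LPS, LPS mice 10 mg/kg LPS by intraperitoneal injection, and LPS+MIC-1 mice 80 mg/kg MIC-1 by oral gavage for 3 days before the same LPS dose, and livers were taken 16 h after the injection. The study describes gavage with either MIC-1 in DMSO or vehicle over the 3 days before the injection. The macrophage libraries came from RAW264.7, a mouse macrophage-like cell line, as control, LPS and LPS with 10 µM MIC-1, 3 libraries each. For the macrophages the sample labels carry the strain and the doses of the mice, and the LPS concentration of the sequenced cultures is not given in the sources used here. Since nothing says that the macrophage libraries came from separate cultures, their p-values measure only the spread between libraries.

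Oxidative phosphorylation is the last stage of respiration in mitochondria. Complexes I and II take electrons from NADH and succinate, complex III passes them to cytochrome c, complex IV hands them to oxygen, and ATP synthase uses the proton gradient built on the way to make ATP. Macrophages activated by LPS are known to shift from respiration towards glycolysis, and hepatocytes are rich in mitochondria.

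Several libraries stood apart, and gene length moved with treatment. LPS library 2 of the macrophages was nearest to control library 2 (SD of the log2 difference over genes 0.21) and far from the other LPS libraries (1.14 and 1.15). The study describes 8 macrophage libraries with 2 LPS libraries, so values are given over the 8 without LPS library 2 and then over all 9. Which LPS library was left out was chosen from the expression values, so that a comparison with LPS over 8 libraries is larger by construction than over 9. Libraries 1 and 3 of each macrophage treatment were close to each other (0.19 to 0.23), although further apart than sampling alone gives. FPKM values summed to 1137533 and 1132904 in LPS libraries 1 and 3 against 557136 to 652486 in the other macrophage libraries. In liver, control library 1, LPS library 2 and LPS+MIC-1 library 2 differed from the others of their group by 0.63 to 0.86, whereas the other pairs differed by 0.28 to 0.38. Depth, estimated from the steps between low FPKM values, was 17600000 to 22500000 reads in macrophages and 4600000 to 19000000 in liver, with 10600000, 4800000 and 4600000 in the liver controls. Macrophage markers summed to between 11020 and 13510 FPKM in the macrophage libraries, where hepatocyte markers reached at most 12.9, and hepatocyte markers to between 33770 and 77990 FPKM in liver.

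The oxidative phosphorylation genes are short, with a median transcript of 955 bases against 2888 over all tested macrophage genes, and 29 of them lie under 700 bases. Over all 212 genes of that length, the median Log2FC of LPS against control was 0.81 in macrophages, against -0.15 for transcripts of 2500 to 4000 bases. Between LPS+MIC-1 and control the trend was slight, with medians of -0.16 and -0.02 for the same classes. The part of this length trend in the results was not tested beyond a fit in which the trend of each library had been removed, whose values stand beside the results below.

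**Figure D1:**
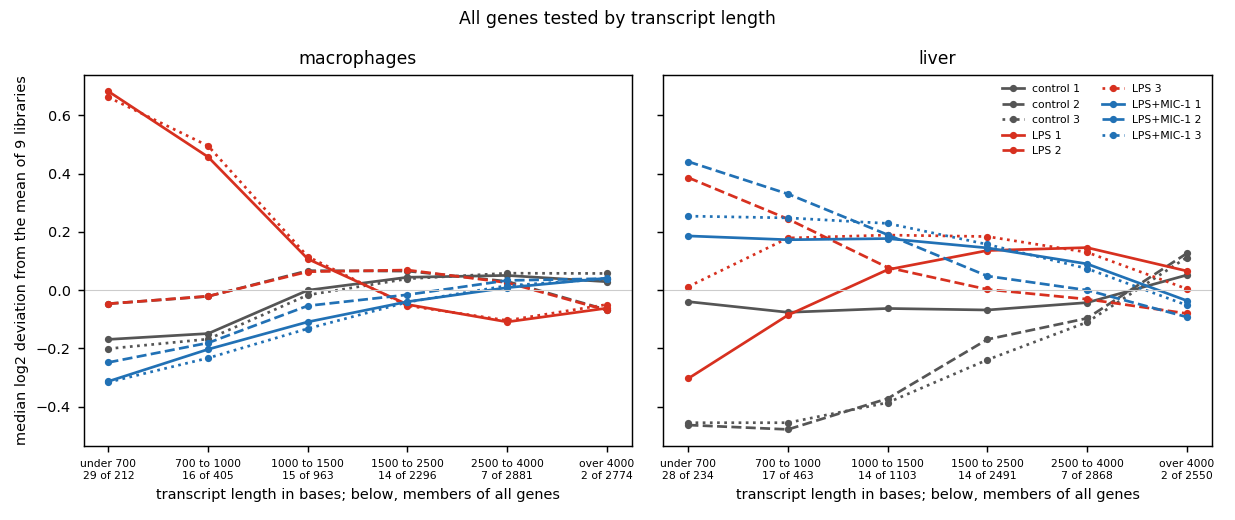
Median over all tested genes of the log2 deviation of a library from the mean of the 9 libraries of its tissue (y axis), by transcript length in bases (x axis, with the number of members and of genes in each class), with a line for each library coloured by treatment. Short genes stand highest in macrophage LPS libraries 1 and 3, at 0.68 and 0.66 under 700 bases, and in liver the controls 2 and 3 are lowest there.

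Members were among the more abundant transcripts. Their median mean level was 162.6 FPKM in macrophages against 12.3 over all tested genes, and 185 against 7.10 FPKM in liver, with 60 and 57 members above 100 FPKM. Cox8a, a small subunit of complex IV, had the highest mean level in macrophages (840.4 FPKM), and Ndufa3, an accessory subunit of complex I, the highest in liver (969.6 FPKM). In the control macrophages the members took 2.91 to 3.05% of all FPKM, in LPS libraries 1 and 3 2.30 and 2.37%, in LPS library 2 2.97%, and in the LPS+MIC-1 libraries 1.94 to 2.03%. In liver these shares were 2.89 to 3.35% in the controls, 1.89 to 2.77% with LPS and 2.24 to 2.5% with LPS+MIC-1.

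In macrophages given LPS and MIC-1, most oxidative phosphorylation genes were lower than in control cells. Of the 83 members 66 fell, 3 rose and 14 did not pass the test (limma over all genes, adjusted p below 0.05, 8 libraries), whereas 60.3% of all tested genes were called, 32.2% lower and 28.1% higher. The median Log2FC of the members was -0.42, against -0.04 over all tested genes. All 4 genes of complex II fell, as did 26 of 36 of complex I and 6 of 8 of complex III. Of complex IV 12 of 14 fell, of the genes counted with ATP synthase 15 of 17, and of the assembly factors 3 of 4. The groups did not overlap for 67 members that were lower and 4 that were higher, against 34.9% and 31.4% of all tested genes. Over all 9 libraries 33 members fell and 1 rose (backgrounds 13% and 11.8%), with the same median, as LPS library 2 enters only the estimate of the spread. Members were lower than other genes of their length in each length class, for example -0.33 against -0.16 under 700 bases and -0.70 against -0.02 at 2500 to 4000 bases. With the length trend removed 69 fell and 4 rose, with all libraries scaled to the same sum 75 and 2, and with quantile normalization 66 and 3. The shares of all genes called under these settings are not given here, and the same-sum scaling lowered the median of all genes as well. Of the 69 calls over 8 libraries 65 were kept, in the same direction, whichever library was left out. With libraries 1 and 3 of each treatment averaged, which leaves 2 samples a group, limma called 0 members and 0 of all tested genes, while the members' median Log2FC was -0.40 and 23 members had an unadjusted p below 0.05.

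With LPS alone, 55 members rose, 10 fell and 18 did not pass the test over 8 libraries, against 36.9% and 38.2% of all tested genes. Their median Log2FC was 0.44, against -0.02 over all genes. This direction depended on the scaling. With the length trend removed 31 rose and 26 fell, and with quantile normalization 22 rose and 38 fell. With libraries scaled to the same sum 8 rose and 61 fell, and the median of all genes moved to -0.93. As the shares of all genes called under these scalings are not given here, the counts have no background. The groups did not overlap for 60 members that were higher and 12 that were lower, against 42.2% and 43.4% of all genes. Over all 9 libraries limma called 0 members and 0 of all genes (0%), with 40 members at an unadjusted p below 0.05, a median Log2FC of 0.29, and 27 higher and 5 lower members whose groups did not overlap (16.1% and 17.2% of all genes). Under 700 bases the median of all genes (0.81) was above that of the members (0.69), whereas at 1000 to 1500 bases the members stood at 0.53 and all genes at 0.10.

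Between LPS+MIC-1 and LPS, 77 members fell and 2 rose over 8 libraries, against 34.1% and 34% of all tested genes. The members' median Log2FC was -0.90, against 0.01 over all genes. The 2 that rose were Ndufab1 and Ndufs1, and the groups did not overlap for 77 lower and 3 higher members (39.9% and 40.3% of all genes). All 9 libraries gave 62 that fell and 0 that rose (11.4% and 10.2% of all genes), and without LPS+MIC-1 library 1 the count was 25. After removal of the length trend 62 fell and 7 rose, with quantile normalization 56 and 5, and with libraries scaled to the same sum 30 and 22, where the median of all genes moved to 0.74. No shares of all genes called are given here for these settings, so these counts stand without a background. Members were lower than other genes of the same length in each length class, by little under 700 bases (-0.97 against -0.96) and by more at 1500 to 2500 bases (-0.80 against 0.01). This comparison shares the LPS libraries with that of LPS against control, and the LPS+MIC-1 libraries with that against control.

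**Figure D2:**
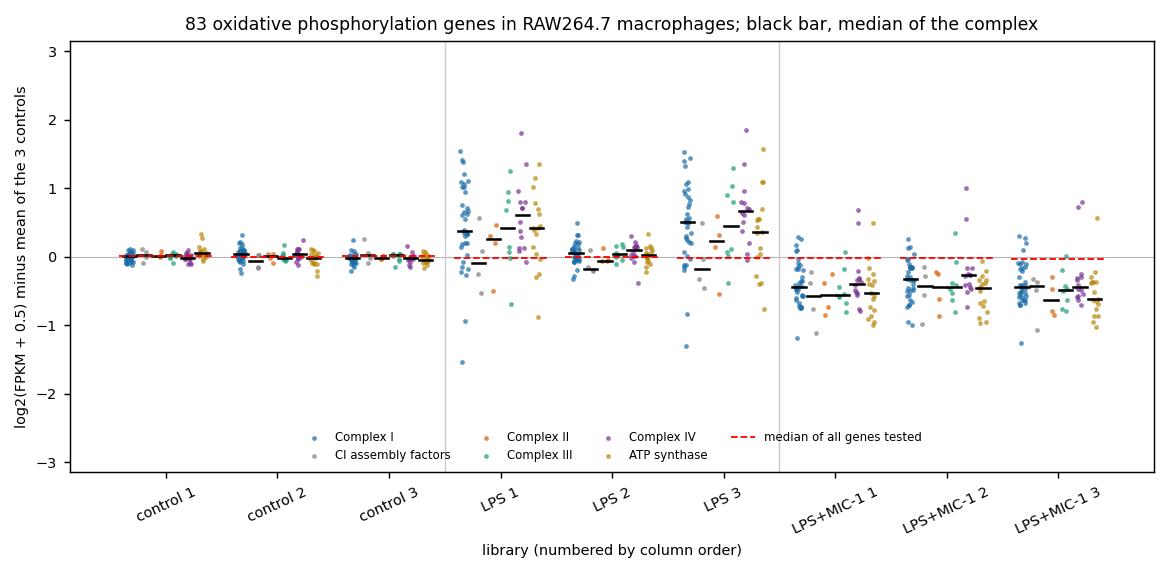
Log2(FPKM + 0.5) of the 83 oxidative phosphorylation genes in each of the 9 macrophage libraries, minus the mean of the 3 controls, with a point for each gene, colours for the complexes, black bars at the median of a complex and red lines at the median of all tested genes. LPS libraries 1 and 3 are mostly above 0, LPS library 2 lies near the controls, and in each LPS+MIC-1 library the median of each complex lies below 0.

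Complex I, the NADH dehydrogenase, held the member with the largest fall between LPS+MIC-1 and control. Ndufs8, an iron-sulfur subunit of its electron path (chromosome 19, 3908870 to 3912717, minus strand, in mm9), measured 22.3, 21.1 and 21.6 FPKM in the untreated libraries, 17.8, 17.7 and 19.8 in those given LPS and 9.22, 10.98 and 8.71 in those given LPS+MIC-1. The 3 LPS+MIC-1 libraries lay below all others. Ndufs8 fell between LPS+MIC-1 and control (Log2FC -1.13, SE 0.09, adjusted p = 4.29e-05, limma) and did not pass the test with LPS alone (Log2FC -0.20). Ndufs1, the largest subunit of complex I, which carries further iron-sulfur clusters (chromosome 1, 63190170 to 63223396, minus strand), measured 47.8, 39.1 and 47.2 FPKM in control, 22.9, 38.7 and 24.8 after LPS and 28.6, 35.1 and 27.6 after LPS+MIC-1. LPS libraries 1 and 3 were the lowest, and LPS library 2 lay with control library 2. Over 8 libraries Ndufs1 fell with LPS (Log2FC -0.89, SE 0.13, adjusted p = 0.000411), rose between LPS+MIC-1 and LPS (Log2FC 0.34, adjusted p = 0.0479) and fell between LPS+MIC-1 and control (Log2FC -0.55, adjusted p = 0.00431).

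Ndufab1, the mitochondrial acyl carrier protein, had the same order at a low level (chromosome 7, 129228917 to 129245400, minus strand). It measured 4.41, 3.65 and 5.32 FPKM in controls, 1.197, 3.41 and 1.49 under LPS and 2.45, 2.44 and 2.67 under LPS+MIC-1. Its fall with LPS was the largest of any member over 8 libraries (Log2FC -1.42, SE 0.16, adjusted p = 9.96e-05). Ndufa6 and Ndufa7, accessory subunits, were the complex I genes with the largest rise with LPS. Ndufa6 measured 129.9, 158 and 122 FPKM in the untreated libraries, 361, 146 and 394 in those given LPS and 120.3, 126 and 117 in those given LPS+MIC-1. Ndufa7 measured 95.7, 129.6 and 89.6 FPKM in control, 303, 129.6 and 274 after LPS and 126, 113 and 125 after LPS+MIC-1. In both, LPS libraries 1 and 3 were above all others and LPS library 2 lay at or below the highest control, while LPS+MIC-1 against control did not pass the test (Log2FC -0.17 and 0.23). Their Log2FC with LPS was 1.47 and 1.47 (adjusted p = 1.25e-05 and 6.23e-05, limma), and 0.72 and 0.66 with the length trend removed.

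Ndufs4, an accessory subunit whose loss is known to cause a mitochondrial disease in mice, was the complex I gene that rose between LPS+MIC-1 and control. Its levels were 36.5, 39.8 and 37.1 FPKM in controls, 76.7, 35.99 and 75.4 under LPS and 45.1, 45.1 and 43.5 under LPS+MIC-1. The LPS+MIC-1 libraries lay above the controls and below LPS libraries 1 and 3 (Log2FC 0.24 against control, adjusted p = 0.00757, limma). With LPS library 2 included it did not pass the test (adjusted p = 0.5496). The most abundant complex I genes, Ndufa3 and Ndufb8, followed the course of most members, with mean levels of 306 ± 10.7 FPKM and 312 ± 11.3 FPKM in the controls (SD, n = 3) and 252 ± 18.6 FPKM and 214 ± 6.41 FPKM with LPS+MIC-1 (SD, n = 3). The difference against control was -0.28 and -0.54 in Log2FC, both past the test.

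Of the factors that assemble complex I, Ndufaf4 fell most between LPS+MIC-1 and control, from 14.8 ± 1.43 FPKM to 6.83 ± 0.374 FPKM (SD, n = 3 each; Log2FC -1.06, SE 0.09, adjusted p = 4.18e-05, limma). Ndufaf2 measured 25.2, 24.6 and 22.6 FPKM in the untreated libraries, 25.5, 25.7 and 23.4 in those given LPS and 14.04, 16.1 and 17.1 in those given LPS+MIC-1. Ndufaf3 measured 21.7, 22.4 and 21.6 FPKM in control, 32.5, 19.01 and 31.1 after LPS and 16.7, 17.9 and 16.8 after LPS+MIC-1. The LPS+MIC-1 libraries lay below all others in Ndufaf2 and Ndufaf3, and both fell against control (Log2FC -0.60 and -0.35).

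Complex II, succinate dehydrogenase, oxidizes succinate in the citric acid cycle and is made of 4 subunits. Sdha, which binds FAD and succinate (chromosome 13, 74459702 to 74487728, minus strand), measured 93.8, 83.1 and 88.4 FPKM in controls, 62.1, 85.3 and 60.02 under LPS and 48.5, 48.1 and 48.7 under LPS+MIC-1. The LPS+MIC-1 libraries lay between 48.1 and 48.7 FPKM, below all others, and LPS library 2 lay with the controls. Sdha fell between LPS+MIC-1 and control (Log2FC -0.86, SE 0.06, adjusted p = 2.09e-05), and over 8 libraries it fell with LPS as well (Log2FC -0.53). Sdhb, the iron-sulfur subunit, measured 144, 148 and 141 FPKM in the untreated libraries, 199, 137 and 218 in those given LPS and 109.8, 121 and 104 in those given LPS+MIC-1. Sdhc and Sdhd, which anchor the complex in the membrane, were the other subunits. Sdhc measured 166, 170.4 and 162 FPKM in control, 190.4, 181 and 183 after LPS and 139.6, 142 and 135 after LPS+MIC-1. Sdhd measured 137, 133 and 136 FPKM in controls, 167, 129 and 168 under LPS and 80.8, 87.4 and 77.4 under LPS+MIC-1. All 4 were lowest with LPS+MIC-1, with groups that did not overlap the controls, and fell by 0.86 (Sdha), 0.37 (Sdhb), 0.26 (Sdhc) and 0.72 (Sdhd) on the log2 scale. With LPS over 8 libraries Sdha fell and the other subunits rose (Log2FC 0.53 for Sdhb, 0.17 for Sdhc and 0.31 for Sdhd), although the direction of such moderate changes with LPS depended on the scaling.

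Complex III, the cytochrome bc1 complex, held the member with the largest fall between LPS+MIC-1 and LPS. Uqcrh, its hinge subunit, which helps bind cytochrome c1 (chromosome 4, 115739570 to 115747676, minus strand), measured 441, 423 and 402 FPKM in the untreated libraries, 1000.1, 464 and 1035 in those given LPS and 284, 271 and 303 in those given LPS+MIC-1. LPS libraries 1 and 3 lay far above every other library, and the LPS+MIC-1 libraries below all controls. Over 8 libraries its Log2FC was 1.27 with LPS (SE 0.07), -1.83 for LPS+MIC-1 against LPS and -0.56 for LPS+MIC-1 against control, all past the test. After removal of the length trend, the first of these was 0.51. Uqcrb, the subunit near the ubiquinone site, measured 307, 286 and 309 FPKM in control, 529, 311 and 522 after LPS and 264, 285 and 263 after LPS+MIC-1. Its LPS+MIC-1 libraries lay just below the control range and did not pass the test against control (Log2FC -0.15), whereas they were lower than LPS libraries 1 and 3 (Log2FC -0.96).

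Complex IV, cytochrome c oxidase, held 2 of the 3 members that rose between LPS+MIC-1 and control. Cox7a2l, which is known to join complexes III and IV into a supercomplex (chromosome 17, 83901259 to 83913673, minus strand), measured 206, 262 and 199.7 FPKM in controls, 771, 272 and 798 under LPS and 355, 322 and 367 under LPS+MIC-1. LPS libraries 1 and 3 were the highest, the LPS+MIC-1 libraries lay between them and all controls, and LPS library 2 lay just above the highest control. Cox7a2l rose with LPS over 8 libraries (Log2FC 1.83, SE 0.12, adjusted p = 7.13e-06), fell between LPS+MIC-1 and LPS (Log2FC -1.17) and was higher with LPS+MIC-1 than in control (Log2FC 0.65, SE 0.11, adjusted p = 0.00134). With LPS library 2 included the last difference did not pass the test (adjusted p = 0.243). Its rise with LPS was 1.55 with the length trend removed.

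Cox8a, the member with the highest level (chromosome 19, 7289648 to 7292106, minus strand), measured 652, 649.96 and 633 FPKM in the untreated libraries, 1649.6, 721 and 1640.4 in those given LPS and 555, 537 and 525 in those given LPS+MIC-1. All LPS+MIC-1 libraries lay below all controls, and LPS libraries 1 and 3 above every other library. Its Log2FC over 8 libraries was 1.35 with LPS, -1.61 for LPS+MIC-1 against LPS and -0.26 for LPS+MIC-1 against control (adjusted p = 0.00258, limma). Cox4i1, the ubiquitous form of subunit 4, measured 629, 675 and 571 FPKM in control, 887, 655 and 965 after LPS and 466, 521 and 467 after LPS+MIC-1. It fell between LPS+MIC-1 and control (Log2FC -0.36).

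Where a subunit has a ubiquitous and a tissue-specific form, the ubiquitous one was the abundant one in macrophages. Cox4i2, Cox6b2, Cox7b2, Cox8b and Cox8c, forms known from lung, testis, heart or muscle, had mean levels under 1 FPKM, and Cox8c was listed at 0 in every library. Cox6a2, the heart and muscle form of subunit 6a, was among the 3 members that rose against control. It measured 3.73, 4.41 and 4.03 FPKM in controls, 4.47, 4.76 and 5.93 under LPS and 5.85, 8.59 and 7.403 under LPS+MIC-1. It rose between LPS+MIC-1 and control (Log2FC 0.76, SE 0.16, adjusted p = 0.00382, and 0.01799 over all 9 libraries) at a level far below that of Cox6a1, the ubiquitous form, which fell (472 ± 17.8 FPKM to 398 ± 20.2 FPKM, SD, n = 3 each). Cox7a1, the muscle form of subunit 7a, was at 7.67 ± 0.843 FPKM in control and 4.51 ± 0.378 FPKM with LPS+MIC-1 (SD, n = 3), and Cox7a2 at 232 ± 8.88 FPKM and 148 ± 16.3 FPKM. Both of these fell (Log2FC -0.70 and -0.65). Cox6b1, Cox7b and Ndufa4 also fell between LPS+MIC-1 and control (Log2FC -0.33, -0.51 and -0.38), and Ndufa4l2, known as a hypoxia-induced relative of Ndufa4, was below 1 FPKM in each macrophage library.

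Of the genes counted with ATP synthase 15 of 17 fell between LPS+MIC-1 and control. Atp5g1, Atp5g2 and Atp5g3 encode the same mature subunit c of the rotor ring, and they moved apart with LPS. Atp5g3 (chromosome 2, 73746504 to 73749383, minus strand) measured 332, 313 and 324 FPKM in the untreated libraries, 175, 291 and 191 in those given LPS and 161, 166 and 158 in those given LPS+MIC-1. LPS library 2 lay below the controls and above every other library, LPS libraries 1 and 3 were lower, and the LPS+MIC-1 libraries were the lowest. Atp5g3 fell with LPS over 8 libraries (Log2FC -0.82, SE 0.06, adjusted p = 1.32e-05) and fell in LPS+MIC-1 against control (Log2FC -0.997, SE 0.06, adjusted p = 9.15e-06). Atp5g2 measured 504, 512 and 468 FPKM in control, 800.1, 539 and 803 after LPS and 331, 308 and 316 after LPS+MIC-1. Atp5g1 measured 300.02, 257 and 276 FPKM in controls, 226, 286 and 210.5 under LPS and 161, 195 and 163 under LPS+MIC-1. With LPS over 8 libraries Atp5g2 rose and Atp5g1 fell (Log2FC 0.70 and -0.35), and the direction of Atp5g2 turned with libraries scaled to the same sum, with quantile normalization and with the length and GC trend removed. In LPS+MIC-1 against control all 3 fell, by 0.68 (Atp5g1), 0.63 (Atp5g2) and 1.00 (Atp5g3) on the log2 scale. Gene copies and pseudogenes share sequence with these and with other members such as Ndufb4, Cox7a2 and Cox7c, and reads split among them make their values uncertain.

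Atp5b, the catalytic beta subunit, measured 817, 722 and 799.96 FPKM in the untreated libraries, 853, 738 and 849.8 in those given LPS and 505, 567 and 498 in those given LPS+MIC-1. Its LPS libraries spanned 738 to 853 FPKM, across the control range, and the LPS+MIC-1 libraries lay below every other library (Log2FC -0.58, SE 0.07, adjusted p = 0.000365). Atp5e, the epsilon subunit, measured 328, 358 and 321 FPKM in control, 853, 331 and 995 after LPS and 266, 256 and 256 after LPS+MIC-1. Atp5l, a subunit of the membrane part, measured 584, 589 and 544 FPKM in controls, 1161, 622 and 1218 under LPS and 479.8, 546 and 465 under LPS+MIC-1. These small subunits were highest in LPS libraries 1 and 3. Their Log2FC between LPS+MIC-1 and LPS was -1.83 and -1.26 over 8 libraries, and -0.37 and -0.21 against control, all past the test.

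**Figure D3:**
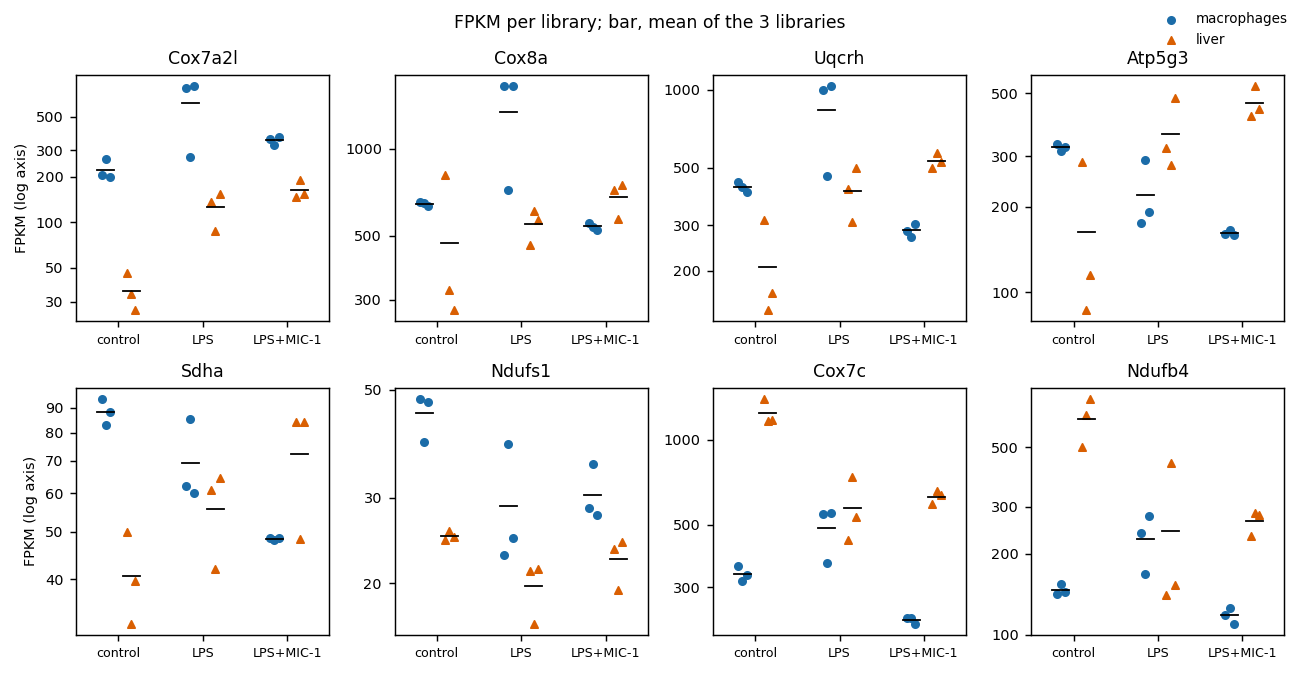
FPKM on a log axis of 8 oxidative phosphorylation genes in each macrophage and liver library (points), by treatment, with macrophages as circles, liver as triangles and bars at the mean of the 3 libraries, LPS library 2 of the macrophages included. Cox7a2l is lowest in the controls of both tissues, and Cox7c and Ndufb4 are highest in the liver controls.

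Other genes that serve these complexes were examined from lists. Of 74 genes of the mitochondrial ribosome, which makes the mitochondrially encoded subunits, 49 fell and 4 rose between LPS+MIC-1 and control in macrophages over 8 libraries, with a median Log2FC of -0.41, against 32.2% and 28.1% of all tested genes. Of 20 assembly factors of complexes II to V, 10 fell and 3 rose, and of 12 regulators of mitochondrial gene expression 8 fell and 0 rose. Cycs (cytochrome c) and Cyc1 fell (2 of 2). Cyc1 encodes cytochrome c1 of complex III, which the choice by symbol leaves out of the complex III counts above. Of the 3 genes of the ATP synthase inhibitor and small subunits outside the Atp5 names 2 fell. Of 5 other factors of complex I assembly 3 fell and 1 rose. With LPS library 2 included the calls were 24 lower and 0 higher among the ribosome genes, 1 and 1 among the assembly factors of complexes II to V, 2 and 0 among the regulators, 1 and 0 in each of the cytochrome c and ATP synthase lists and 0 and 0 among the other complex I factors (13% and 11.8% of all genes). With LPS over 8 libraries the ribosome genes were divided, 29 higher and 26 lower, against 36.9% and 38.2% of all genes, and over all 9 libraries limma called 0. Tfam, the main packaging and transcription factor of mitochondrial DNA, measured 12.97, 12.6 and 12.9 FPKM in control, 2.69, 11.7 and 2.47 after LPS and 7.07, 9.22 and 7.54 after LPS+MIC-1. It fell with LPS (Log2FC -2.12, adjusted p = 3.18e-06, limma, 8 libraries), and its LPS+MIC-1 libraries lay between LPS libraries 1 and 3 and the controls. Gabpb1, another of the regulators, moved the other way with LPS (Log2FC 3.50). It measured 1.59, 3.59 and 2.08 FPKM in control, 31.3, 1.82 and 31.1 after LPS and 2.24, 2.86 and 5.01 after LPS+MIC-1. Of the 12 regulators 3 rose and 7 fell with LPS over 8 libraries, against 36.9% and 38.2% of all genes. Over all 9 libraries limma called 0 of them. Cox17, a copper chaperone of complex IV, measured 266, 344 and 250 FPKM in controls, 1039, 303 and 1049 under LPS and 483, 484 and 474 under LPS+MIC-1, and rose with LPS over 8 libraries (Log2FC 1.88). No gene encoded by mitochondrial DNA carries a value in the tables used, and these genes are not analysed here. S100a8, known from neutrophils and myeloid cells, moved with MIC-1 in the same libraries, at 1.46 to 2.40 FPKM in control, 29.7, 3.56 and 39.2 with LPS and 652 to 718 under LPS+MIC-1, and the neutrophil list summed to 3.16 to 5.19, 5.36 to 43.3 and 690.5 to 756 FPKM. What part such a change in cell state had in the members' levels was not tested.

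Promoter sequences of 3 members, picked by their macrophage results, are shown. These are Sdha (lower with LPS+MIC-1 than in control), Uqcrh (the largest fall between LPS+MIC-1 and LPS) and Cox7a2l (higher than control under both treatments). They are the 250 bases before the annotated start, 5′ to 3′ on the gene's strand, from RefSeq on GRCm38.p6, another build than the mm9 positions given above. Capitals mark letters of a motif searched on both strands, the core of NRF1 (GCGCNTGCG), of ETS factors (CCGGAAG), of YY1 (AAGATGGC) and of Sp1 (GGGCGG), factors known to bind many promoters of respiratory chain genes.
Sdha, chr13:74350241-74350490, minus strand: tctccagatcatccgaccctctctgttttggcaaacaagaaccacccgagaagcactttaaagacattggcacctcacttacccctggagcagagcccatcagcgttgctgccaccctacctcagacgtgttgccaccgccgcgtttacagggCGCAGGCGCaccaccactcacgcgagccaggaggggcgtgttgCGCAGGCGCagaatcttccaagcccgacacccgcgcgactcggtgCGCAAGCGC
Uqcrh, chr4:116075071-116075320, minus strand: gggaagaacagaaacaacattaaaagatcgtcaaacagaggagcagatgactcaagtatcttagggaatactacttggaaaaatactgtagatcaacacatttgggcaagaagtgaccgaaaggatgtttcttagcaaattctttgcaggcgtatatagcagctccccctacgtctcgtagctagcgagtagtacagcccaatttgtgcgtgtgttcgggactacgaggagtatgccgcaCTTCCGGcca
Cox7a2l, chr17:83514334-83514583, minus strand: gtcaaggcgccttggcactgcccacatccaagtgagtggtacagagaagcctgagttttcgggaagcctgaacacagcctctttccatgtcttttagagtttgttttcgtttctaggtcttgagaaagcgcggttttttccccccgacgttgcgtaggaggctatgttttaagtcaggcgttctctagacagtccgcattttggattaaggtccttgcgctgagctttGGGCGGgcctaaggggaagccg

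Sdha holds 3 matches to the NRF1 letters, on the strand opposite to the gene, which begin 97, 54 and 9 bases before the start. Uqcrh holds 1 match to the ETS letters, 10 bases before the start, and Cox7a2l holds 1 match to the Sp1 letters, 22 bases before it. The promoters of Cox8a, Cox7c and Atp5b were also read and are not shown. Cox8a and Cox7c hold no match, and Atp5b holds matches to the Sp1 letters 199 and 45 bases before the start. Promoters were matched for 71 of the 84 members, 68 by symbol and 3 by synonym. In the 250 bases before the start, NRF1 letters occurred in 18 of the 71 (25.4%), against 5.88% of the 27025 genes of the RefSeq table, ETS letters in 13 (18.3% against 7.83%), YY1 letters in 2 (2.82% against 1.83%) and Sp1 letters in 28 (39.4% against 35.4%). These are counts of letters and carry no test.

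In liver, the difference with LPS was mixed. Of 82 members 11 rose, 6 fell and 65 did not pass the test between LPS and control, against 34.7% of all tested genes called, 19.2% higher and 15.5% lower. Members had a median Log2FC of 0.01, against 0.15 over all genes. The groups did not overlap for 7 members that were higher and 9 that were lower (24.2% and 20.8% of all genes). Of the 17 calls 2 were kept whichever library was left out, Cox7a2l (higher) and Cox7c (lower), and the number of calls ran from 2 without LPS library 3 to 31 without control library 1. With the 3 libraries that stand apart left out, 32 members rose and 22 fell, as did 3926 and 2931 of all 10147 tested genes, a choice made after seeing the data. With the length trend removed 5 rose and 24 fell, with libraries scaled to the same sum 4 and 24, and with quantile normalization 12 and 12. For these settings the shares of all genes called are not given here, and the same-sum scaling lowered the median of all genes as well. In whole liver, fewer cells of a type and less RNA per cell cannot be told apart.

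Cox7a2l had the clearest rise of a member in liver. It measured 46.5, 33.5 and 26.3 FPKM in controls, 137, 87.5 and 154 under LPS and 147, 192 and 153 under LPS+MIC-1. All LPS and LPS+MIC-1 libraries lay above all controls (Log2FC 1.82, SE 0.28, adjusted p = 0.00399 for LPS and Log2FC 2.22, SE 0.28, adjusted p = 0.00171 for LPS+MIC-1, both against control, limma). Cox7c, a small subunit of complex IV (chromosome 13, 86184421 to 86186509, minus strand), fell. It measured 1391, 1166 and 1176 FPKM in the untreated libraries, 442, 739 and 534 in those given LPS and 590.1, 657 and 635 in those given LPS+MIC-1. Every control lay above every other library (Log2FC -1.15, SE 0.23, adjusted p = 0.00821 for LPS). Ndufb4, an accessory subunit of complex I (chromosome 16, 37647256 to 37654539, minus strand), measured 500.2, 661 and 755 FPKM in control, 141, 438 and 153 after LPS and 233, 285 and 279 after LPS+MIC-1. It too was highest in the controls, and the call for LPS (Log2FC -1.57, adjusted p = 0.02103) was lost in 4 of 9 fits that left out 1 library.

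Atp5j, a coupling subunit of ATP synthase, was listed at 0 in the 3 liver controls, at 17.6, 1.57 and 15.04 FPKM after LPS and 42.2, 6.21 and 30.7 after LPS+MIC-1. Libraries 2 of both treatments were the lowest of their group, and no fold is given against the listed 0. Atp5g3 measured 286, 86.6 and 115 FPKM in controls, 321, 279 and 480.2 under LPS and 417, 530.2 and 441 under LPS+MIC-1. Control library 1 stood far above the other controls and above LPS library 2, so that the groups overlapped, and the call (Log2FC 1.30 with LPS) was lost in 7 of 9 fits that left out 1 library. Cox7a1 measured 9.78, 8.67 and 5.67 FPKM in the untreated libraries, 1.09, 5.84 and 1.65 in those given LPS and 5.03, 4.48 and 8.42 in those given LPS+MIC-1. Its 2 lowest libraries were LPS 1 and 3, LPS library 2 lay within the control range, and the call (Log2FC -1.58) was lost in 6 of 9 such fits.

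Between LPS+MIC-1 and LPS in liver, limma called 0 members and 0 of all tested genes (0%), with 7 members and 364 genes at an unadjusted p below 0.05. Of the 82 members 80 had a Log2FC above 0, with a median of 0.35 against -0.01 over all genes, and in 20 the groups did not overlap in the higher direction against 5.1% of all genes, in 0 in the lower direction against 4.64%. The median lay between 0.20 (assembly factors) and 0.40 (ATP synthase) in each complex. It was 0.26 with the length trend removed, 0.18 with quantile normalization and 0.06 with libraries scaled to the same sum, where the median of all genes moved to -0.26. Over all genes under 700 bases the median was 0.27, against 0.38 for the members of that length. Ndufv1, which carries the NADH and FMN site of complex I, had the smallest p of a higher member. It measured 40.6, 33.3 and 34.5 FPKM in control, 63.3, 54.3 and 71.1 after LPS and 98.4, 76.6 and 104 after LPS+MIC-1. Each LPS+MIC-1 library lay above each LPS library (Log2FC 0.56, adjusted p = 0.997, limma, exact permutation p = 0.1, the smallest that 3 against 3 allows). Ndufb11 had the smallest p of a lower member, with overlapping groups (Log2FC -0.08). With the libraries that stand apart left out, 27 members rose and 0 fell, as did 1069 and 726 of all genes.

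Between LPS+MIC-1 and control in liver, 21 members rose and 3 fell, against 20.1% and 16.3% of all tested genes. Their median Log2FC was 0.39, against 0.15 over all genes, and the groups did not overlap for 31 higher and 7 lower members (30.5% and 24.1% of all genes). ATP synthase held 6 of the 21 and complex I 9. Of the 24 calls 10 were kept whichever library was left out, all of them higher, and the number of calls ran from 12 without control library 2 to 38 without control library 1. After removal of the length trend 12 rose and 11 fell, with libraries scaled to the same sum 8 and 18, and with quantile normalization 16 and 6. Shares of all genes called are not given here for these settings. The members' median Log2FC under these settings was -0.12, -0.24 and 0.10, and the medians of all genes were 0.01, -0.43 and 0.02. Of the 24 members called, 0 had a Log2FC of the other sign under any of these.

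Cox5a, a nuclear subunit of complex IV, measured 155, 37.3 and 36.2 FPKM in controls, 181, 91.3 and 244 under LPS and 238, 207 and 239.96 under LPS+MIC-1. Control library 1 stood far above the other controls, though below all LPS+MIC-1 libraries (Log2FC 1.93, adjusted p = 0.0299, limma, lost in 5 of 9 fits that left out 1 library). Cox4i1 showed the same split among the controls, at 682, 117 and 71.2 FPKM in the untreated libraries, 534, 368 and 681 in those given LPS and 788, 471 and 848 in those given LPS+MIC-1. It did not pass the test in any comparison (Log2FC 1.93 between LPS+MIC-1 and control). Uqcrb measured 784, 717 and 736 FPKM in control, 297, 569 and 398 after LPS and 394, 479.8 and 410.5 after LPS+MIC-1. Each control lay above each other library, and LPS+MIC-1 against control had a Log2FC of -0.80, a call that was lost in 6 of 9 such fits.

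The subunits of complex II in liver varied widely among the controls. Sdha measured 49.9, 32.4 and 39.6 FPKM in controls, 60.9, 41.9 and 64.6 under LPS and 84.2, 48.4 and 83.99 under LPS+MIC-1. Sdhd measured 42.6, 19.3 and 18.3 FPKM in the untreated libraries, 61.1, 34.1 and 77.1 in those given LPS and 87.9, 53.4 and 85.3 in those given LPS+MIC-1. Of the 4, Sdhd rose between LPS+MIC-1 and control (Log2FC 1.56, adjusted p = 0.0201), a call lost in 4 of 9 fits without 1 library, and the other subunits did not pass the test in any comparison. Sdhb was at 145 ± 58.3 FPKM in control, 109.5 ± 11.2 FPKM with LPS and 124 ± 4.97 FPKM with LPS+MIC-1 (SD, n = 3 each), and Sdhc at 104 ± 60.9 FPKM, 104 ± 15.9 FPKM and 132 ± 29.7 FPKM.

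Ndufa3, the member with the highest level in liver, measured 1034, 1317 and 1299 FPKM in control, 443, 1229.99 and 657 after LPS and 779.9, 1132 and 835 after LPS+MIC-1. Ndufb7, another accessory subunit, measured 538, 498 and 504 FPKM in controls, 271, 614 and 325 under LPS and 440.3, 559.7 and 453 under LPS+MIC-1. LPS library 2 lay within the control range in Ndufa3 and above it in Ndufb7, and LPS libraries 1 and 3 were the lowest. Neither passed the test (Log2FC -0.77 and -0.44 with LPS). Cox6c measured 703, 1086 and 1302 FPKM in the untreated libraries, 386, 1133 and 583 in those given LPS and 687, 1001 and 752 in those given LPS+MIC-1. Cox6b1 measured 1228, 1076 and 1031 FPKM in control, 593, 847 and 688 after LPS and 884, 832 and 908 after LPS+MIC-1. Both were lowest in LPS libraries 1 and 3, and Cox6b1 fell with LPS (Log2FC -0.66), a call lost in 6 of 9 fits without 1 library. Uqcr11 of complex III was at 682 ± 277 FPKM in control, 458 ± 165 FPKM with LPS and 701 ± 65.5 FPKM with LPS+MIC-1, and Atp5j2 of ATP synthase at 531 ± 141 FPKM, 607 ± 242 FPKM and 800.2 ± 28.4 FPKM (SD, n = 3 each). Their groups overlapped between LPS and control. Ndufa4l2 was a member in liver, at 4.61, 7.78 and 8.44 FPKM in controls, 11.1, 4.07 and 14.4 under LPS and 13.7, 4.17 and 13.5 under LPS+MIC-1, without a call.

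**Figure D4:**
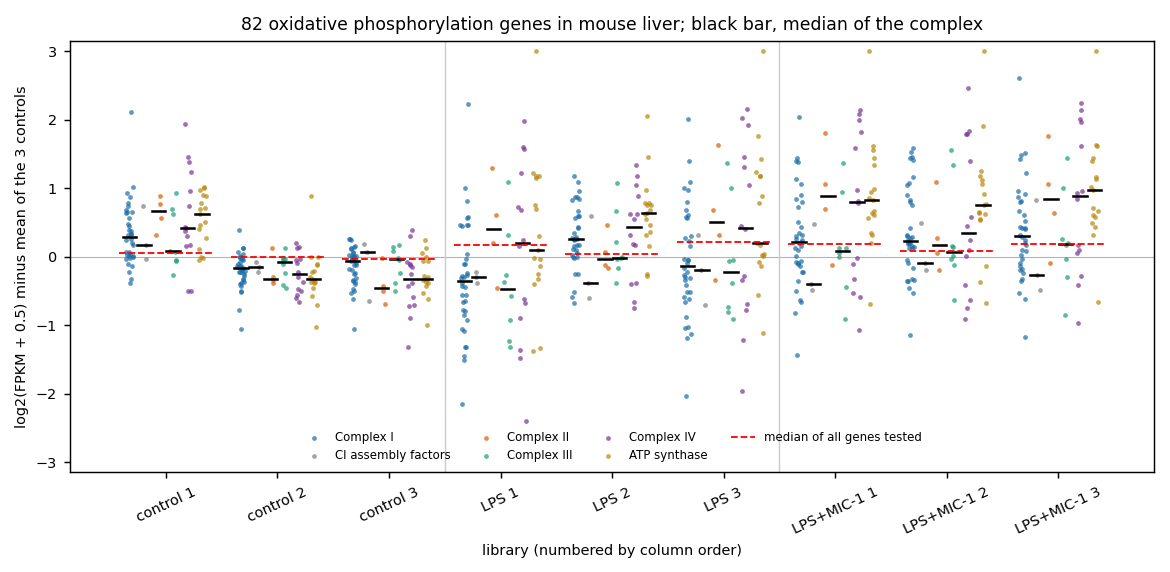
Log2(FPKM + 0.5) of the 82 oxidative phosphorylation genes in each of the 9 liver libraries, minus the mean of the 3 controls, with a point for each gene, colours for the complexes, black bars at the median of a complex, red lines at the median of all tested genes and values past 3 drawn at 3. The median of the members is 0.38 in control library 1 and -0.22 and -0.14 in the other controls.

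The other genes of the pathway in liver gave 21 of 74 ribosomal genes higher and 3 lower with LPS, and 30 higher and 5 lower with LPS+MIC-1 against control. The shares of all tested genes were 19.2% higher and 15.5% lower in the first comparison, and 20.1% and 16.3% in the second. Assembly factors of complexes II to V numbered 3 higher and 0 lower of 21 with LPS, and for LPS+MIC-1 the counts were 4 and 1. Of 5 other factors of complex I assembly 3 rose and 1 fell in both comparisons, and of 12 regulators 1 rose and 1 fell with LPS and 0 rose and 1 fell with LPS+MIC-1. Ppargc1b, a coactivator of mitochondrial biogenesis, measured 13.3, 7.88 and 8.98 FPKM in control, 1.09, 2.201 and 0.544 after LPS and 0.949, 1.44 and 0.772 after LPS+MIC-1. All controls lay above all other libraries, and it fell between LPS+MIC-1 and control (Log2FC -2.75, adjusted p = 0.00203, limma). Among the 2 genes Cycs and Cyc1 0 were called, and of the 3 ATP synthase inhibitor and small subunit genes 1 rose in each comparison with control. Between LPS+MIC-1 and LPS 0 genes of these lists were called.

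Markers of other cells moved with LPS in the same livers. The neutrophil list summed to 36.5 to 52.0 FPKM in control, 349 to 440.0 with LPS and 189 to 453 under LPS+MIC-1, the macrophage list to 30.7 to 46.2, 132.5 to 627 and 129.7 to 439, and the Kupffer cell list to 26.7 to 47.7, 14.7 to 15.5 and 12.5 to 20.4. Of the macrophage list, Cd14 was at 569, 84.2 and 551.5 FPKM with LPS and 56.7, 407 and 61.4 under LPS+MIC-1, and of the 5 macrophage genes tested 2 rose and 0 fell with LPS. Of the 6 neutrophil genes tested 5 rose and 1 fell with LPS, of the 4 Kupffer cell genes 0 rose and 2 fell, and of the 8 hepatocyte genes 1 rose and 1 fell. Their part in the members' levels was not tested.

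**Figure D5:**
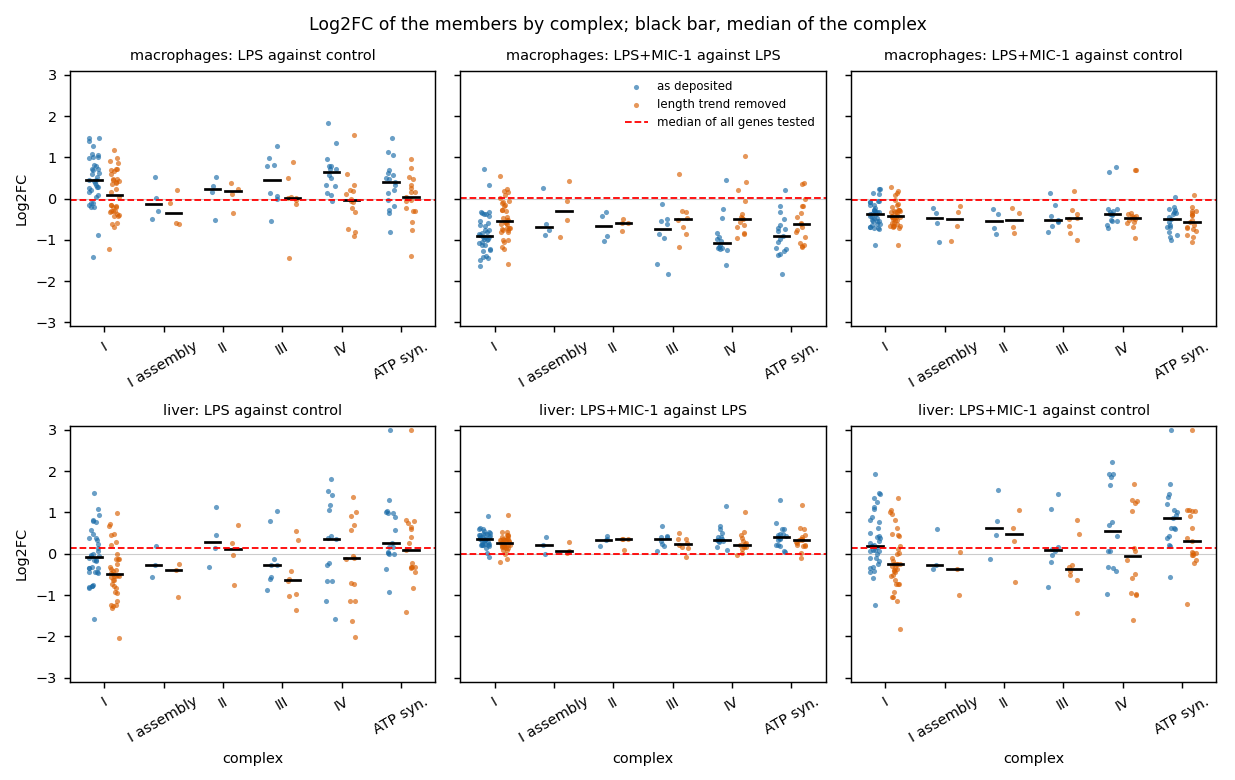
Log2FC of each oxidative phosphorylation gene by complex in macrophages (8 libraries, upper panels) and liver (lower panels), with the FPKM as deposited (blue) and with the length trend removed (orange), black bars at the median of a complex, red lines at the median of all tested genes and values past 3 drawn at 3. The macrophage medians of LPS+MIC-1 against control lie below 0 in each complex on both scales, whereas those of LPS against control are all lower with the length trend removed than as deposited. With libraries scaled to the same sum, which is not drawn, 61 of 83 members were called lower with LPS. That scaling lowered the median of all tested genes as well, and the share of all genes called under it is not given here.

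Set side by side over the 81 members of both tables, LPS against control was called in both tissues for 12 members (14.8%), against 24.5% of the 8172 genes tested in both, and in opposite directions for 8.64% against 11%. Of the 12, 5 rose in both, Cox7a2l and Uqcrh among them, and 7 moved in opposite directions (Atp5g3, Atp5h, Cox6b1, Cox7c, Ndufab1, Ndufb4 and Uqcrb). These directions hold on the deposited scale. With libraries scaled to the same sum, 40 of the 65 members called with LPS in macrophages changed sign. Cox6b1 and Uqcrb of the 7 were among them, as was Cox7a2, which had risen in both. LPS+MIC-1 against control was called in both for 19 members (23.5% against 21.6% of all), in opposite directions for 18.5% against 11.2%. Of the 19, 2 rose in both (Cox7a2l and Ndufs4), 2 fell in both (Cox7c and Ndufb4), and 15 moved in opposite directions, lower in macrophages and higher in liver. The members of these groups were picked by their values, and the tables were normalized separately, so the difference between tissues was not tested. Ndufs4 measured 24.97, 11.8 and 12.3 FPKM in control, 31.2, 28.7 and 41.3 after LPS and 41.3, 47.1 and 43.8 after LPS+MIC-1 in liver, where all LPS and LPS+MIC-1 libraries lay above all controls. Its Log2FC between LPS+MIC-1 and control was 1.48 in liver and 0.24 in macrophages.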

How the data were processed

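RNA was sequenced from 9 macrophage and 9 liver libraries. The authors mapped reads with Kallisto 0.45.0 to a RefSeq index of mm9 and made the deposited FPKM values with tximport and DESeq2 1.20.0, scaled by size factors within each table, so the tables are not on 1 scale. Their deposited comparison tables (mean normalized count, log2 fold change and its error, statistic and p-values) were not used. No sample column was left unassigned (0), and libraries are numbered by column order.

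Genes with a mean FPKM above 1 were tested on log2(FPKM + 0.5), which understates changes of low genes, with limma 3.58.1 (R 4.3.3) in 1 linear model per table with a mean for each group and an intensity trend of the prior variance. A call was a p below 0.05 after Benjamini-Hochberg adjustment, with no minimum fold. Log2FC is the difference on that scale. Macrophages were fitted over 8 libraries, and over 9 beside them. Levels, shares and figures used Python 3.11.15, pandas 2.3.3, numpy 2.4.6 and matplotlib 3.10.9. Depth was estimated from the steps of low FPKM values and covers counting error only. Transcript length is that of the longest protein-coding transcript of the symbol in a GENCODE annotation of mm9. It is another annotation than the RefSeq index behind the FPKM values. Exact permutation tests were two-sided, and 3 against 3 cannot go below 0.1. The fit was tested on simulated independent libraries, with the spread of each gene capped at the median spread over genes. The simulation held no outlying library, no close pairs of libraries and no shift of length or scale, so it does not cover these features.

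Members and lists were chosen with earlier results of these data known. Named members were the 2 with the highest mean in each complex, all 4 Sdh genes, the 3 called members with the largest Log2FC in each direction of each comparison (or 1 with the smallest p where there was no call), members with isoforms, and up to 3 called genes of each list. Members called in both tissues were named after their values were seen. Alternatives were the pseudocount (0.1 and 1), the filter (none and 5), other scalings, removal of length and GC trends, stricter thresholds, fits of only 2 groups, averaged libraries and each library left out.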

Additional observations from a re-analysis of the deposited data

Results flagged for a closer look

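In 28 cases the groups of a named member did not overlap in macrophages over the 8 libraries without LPS library 2. The liver groups did not overlap either, in the opposite direction. The library left out can go against the pattern. Ndufs4 measured 35.99 FPKM in it and 43.5 to 45.1 under LPS+MIC-1, whereas a fall is listed below. The difference between the tissues was not tested, as the tables were normalized separately and a cell line was set against whole tissue. With LPS, macrophages over 8 libraries and liver had Log2FC of 0.80 against -0.66 (Cox6b1), 0.71 against -1.15 (Cox7c), -1.42 against 0.81 (Ndufab1), 0.81 against -1.57 (Ndufb4), 0.59 against -0.32 (Ndufb8) and 0.81 against -0.87 (Uqcrb). For LPS+MIC-1 against LPS these were -0.70 against 0.34 (Atp5b), -0.34 against 0.59 (Atp5g1), -1.26 against 0.44 (Atp5l), -0.98 against 0.60 (Cox7a2), -0.47 against 0.67 (Ndufa4), -1.24 against 0.50 (Ndufa7), -1.13 against 0.40 (Ndufb8), -0.76 against 0.40 (Ndufs4) and -0.38 against 0.56 (Ndufv1). For LPS+MIC-1 against control they were -0.58 against 1.38 (Atp5b), -0.37 against 0.38 (Atp5e), -0.997 against 1.70 (Atp5g3), -0.88 against 0.62 (Atp5j2), -0.40 against 1.93 (Cox5a), -0.65 against 1.67 (Cox7a2), -0.38 against 1.86 (Ndufa4), -0.70 against 1.12 (Ndufab1), -0.35 against 0.60 (Ndufaf3), -0.54 against 0.084 (Ndufb8), -0.48 against 1.34 (Ndufv1), -0.72 against 1.56 (Sdhd) and -0.56 against 1.45 (Uqcrh). For members in both tables, named or not, the groups were apart in opposite directions for 7, 19 and 24 of 81 (8.64%, 23.5% and 29.6%), against 17.7%, 5.16% and 18.8% of the 8172 genes tested in both. The macrophage direction turned with other scalings for Cox6b1, Ndufb8 and Uqcrb with LPS and for Atp5b, Atp5g1, Ndufa4 and Ndufs4 between LPS+MIC-1 and LPS. In liver limma called none of the members listed for LPS+MIC-1 against LPS (7 members at an unadjusted p below 0.05).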

How the results depend on the processing

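No paired analysis was possible because the columns of the tables carry no replicate number. Macrophage results are over 8 libraries unless all 9 are named. Counts of members called under an alternative stand without the share of all genes called, unless that share is stated. The libraries that stand apart in liver, the averaging of the closest liver libraries and the combined length and GC trend were alternatives chosen after seeing the data.

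Of 65 members called with LPS in macrophages 14 passed the stricter threshold (adjusted p below 0.01 and an absolute Log2FC above 1), as did 30 of 79 between LPS+MIC-1 and LPS and 2 of 69 for LPS+MIC-1 against control. At the ordinary threshold all 9 libraries gave 0, 62 and 34 calls in these comparisons, and with libraries 1 and 3 of each treatment averaged, which leaves 2 samples a group, limma called 0, 0 and 0 members and 0 of all genes (0, 35 and 23 members at an unadjusted p below 0.05). Scaling to the same sum left 52 calls between LPS+MIC-1 and LPS. The 62 calls of LPS+MIC-1 against LPS over 9 libraries became 22 with that scaling, 41 with quantile normalization, 17 with only the groups compared, 8 under the stricter threshold, 25 at an adjusted p below 0.01 and 0 with libraries averaged. The 34 calls against control became 56, 68, 2, 16 and 0 with quantile normalization, only the groups compared, the stricter threshold, an adjusted p below 0.01 and averaging.

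In liver the 17 calls with LPS became 10 without the filter on low values, 28 with the same sum, 29 with the length trend removed, 30 with the length and GC trend removed, 5 with only the groups compared, 2 under the stricter threshold, 2 at an adjusted p below 0.01, 0 with the closest libraries averaged and 54 without the libraries that stand apart. LPS+MIC-1 against LPS had 0 calls except 27 without the libraries that stand apart. The 24 calls of LPS+MIC-1 against control became 6 under the stricter threshold, 7 at an adjusted p below 0.01, 0 with averaging and 53 without the libraries that stand apart.

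Leaving out 1 library at a time, calls in macrophages ranged from 55 to 67 with LPS (lowest without LPS library 1), 73 to 79 for LPS+MIC-1 against LPS and 65 to 69 against control. With 9 libraries they ranged from 0 to 65, 25 to 79 and 15 to 69, each highest without LPS library 2, the second lowest without LPS+MIC-1 library 1 and the last without control library 1. Leaving out library 1 or 3 of LPS or LPS+MIC-1 lowered the second to 25 to 34, and library 1 or 3 of the control or LPS+MIC-1 the last to 15 to 18. In liver the calls with LPS ranged from 2 (without LPS library 3) to 31 (without control library 1), with 30 without LPS library 2, and leaving out control library 2 or 3, LPS library 1 or LPS+MIC-1 library 1 or 3 gave 4 to 10. LPS+MIC-1 against LPS ranged from 0 to 0. LPS+MIC-1 against control ranged from 12 (without control library 2 or 3 or LPS+MIC-1 library 1 or 3) to 38 (without control library 1). A lone LPS library left in a group is assumed to vary like the other groups.

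Scaling to the same sum moved the median Log2FC of all tested genes to -0.93 with LPS, 0.74 for LPS+MIC-1 against LPS and -0.21 against control in macrophages (-0.65, 0.44 and -0.21 over all 9 libraries), and to -0.18, -0.26 and -0.43 in liver. Over all members, 40 of the 65 called with LPS in macrophages changed sign with the same sum, 30 with quantile normalization, 16 with the length trend removed and 15 with the length and GC trend removed. Of the 79 called between LPS+MIC-1 and LPS these counts were 27, 9, 7 and 7. In macrophages over all 9 libraries, 7 of 62 changed sign for LPS+MIC-1 against LPS with the same sum and 1 with the length trend removed. In LPS+MIC-1 against control of macrophages, and in liver, 0 called members changed sign under any alternative run. Members named in macrophages that changed sign there and were called on at least 1 of the scales follow. Of these, Atp5b, Cox6a2, Cox7a1, Ndufa4 and Ndufaf2 were not called with LPS on the deposited scale. Members named through liver only, such as Cox7c, Ndufb4, Cox6c and Ndufv1, are not in this list, whatever their macrophage direction. With libraries scaled to the same sum, the Log2FC with LPS turned to -0.86 (Atp5b), -0.29 (Atp5g2), -0.42 (Cox4i1), -0.041 (Cox6a1), -0.58 (Cox6a2), -0.19 (Cox6b1), -0.79 (Cox7a1), -0.66 (Cox7a2), -0.29 (Cox7b), -0.30 (Ndufa3), -0.91 (Ndufa4), -0.95 (Ndufaf2), -0.45 (Ndufaf3), -0.40 (Ndufb8), -0.46 (Sdhb), -0.82 (Sdhc), -0.68 (Sdhd) and -0.19 (Uqcrb). With quantile normalization it was -0.95 (Atp5b), -0.37 (Atp5g2), -0.011 (Atp5l), -0.51 (Cox4i1), -0.15 (Cox6a1), -0.27 (Cox6b1), -0.29 (Cox7a2), -0.18 (Ndufa3), -0.75 (Ndufa4), -0.26 (Ndufb8), -0.34 (Sdhc), -0.21 (Sdhd) and -0.067 (Uqcrb). Without the length trend it was -0.050 (Cox4i1), -0.020 (Cox6b1), -0.90 (Cox7a1), -0.22 (Cox7a2), -0.17 (Ndufa3), -0.75 (Ndufa4) and -0.60 (Ndufaf2). Without the length and GC trend it was -0.011 (Atp5g2), -0.13 (Cox4i1), -0.0041 (Cox6b1), -0.94 (Cox7a1), -0.11 (Cox7a2), -0.13 (Ndufa3), -0.63 (Ndufa4) and -0.48 (Ndufaf2). With libraries scaled to the same sum, the Log2FC of LPS+MIC-1 against LPS turned to 0.10 (Atp5b), 0.47 (Atp5g1), 0.63 (Atp5g3), 0.33 (Ndufa4), 0.16 (Ndufaf2), 0.034 (Ndufs4), 0.47 (Sdha) and 0.38 (Sdhc). With quantile normalization it was 0.075 (Atp5b), 0.14 (Atp5g1), 0.29 (Atp5g3), 0.17 (Ndufa4) and 0.021 (Sdhc). Without the length trend it was 0.36 (Atp5g3) and 0.22 (Ndufa4). Without the length and GC trend it was 0.30 (Atp5g3) and 0.11 (Ndufa4). The cause was not tested. Of the other values of single members under an alternative, 3943 kept their direction and their side of the threshold, 351 lost the call and 122 gained it.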
